A study of Mus musculus with 15 samples.

Results

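Toll-like receptors are the pattern recognition receptors of innate immunity. The genes described here are the 10 members of the family that have a probe set annotated to a single symbol: Tlr1, Tlr2, Tlr3, Tlr4, Tlr6, Tlr7, Tlr8, Tlr9, Tlr12 and Tlr13. They were taken by gene symbol, out of 19938 genes measured, and each had 1 such probe set. Expression was read on 15 Affymetrix arrays, each of a population isolated from the bone marrow of mice, either common dendritic cell progenitors (CDPs) or the later Zbtb46-GFP+ c-Kit-intermediate cells. All 3 genotypes carry the Zbtb46-GFP reporter. The WT cells came from Zbtb46-GFP chimeric mice, the Batf3 KO cells from Batf3 KO Zbtb46-GFP reporter mice and the Id2 KO cells again from chimeric mice with the reporter, so that only the Batf3 KO cells are not labelled as chimeric. Neither age nor treatment is given in the labels, and nothing says whether arrays of a group came from separate mice. There were 2 CDP arrays and 3 Zbtb46-GFP+ arrays of each genotype. Replicate 1 of each Zbtb46-GFP+ group lay on another scale (median signal 23.8 to 24.1, against 100.8 to 112.1 on the other 12 arrays) and is given apart. Means, SDs and tests below therefore rest on 12 arrays, 2 per group, and values are log2 signal.

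Members of the family at the cell surface bind mostly bacterial products: Tlr2 recognises lipoproteins together with Tlr1 or Tlr6, and Tlr4 recognises lipopolysaccharide. The members in endosomes sense nucleic acids or parasite proteins: Tlr3 binds double-stranded RNA, Tlr7 and Tlr8 bind single-stranded RNA or its fragments, Tlr9 binds unmethylated CpG DNA, Tlr13 binds bacterial ribosomal RNA, and Tlr12 responds to profilin of protozoan parasites. Among mature dendritic cells (DCs), Tlr3 is characteristic of the cDC1 subset, and Tlr7 and Tlr9 of plasmacytoid DCs (pDCs). Batf3 is an AP-1 factor needed to keep the cDC1 programme, and Id2 is an inhibitor of E proteins, which favour the pDC lineage.

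Of the 10 receptor genes, 8 had start sites in the RefSeq promoter table (build GRCm38.p6), with 10 upstream windows of 250 bases between them; Tlr4 and Tlr7 were not listed. The windows of 4 genes are printed because they span the range of behaviour seen on the arrays: Tlr3 and Tlr13 had the largest rises, Tlr9 rose in every genotype, and Tlr6 did not pass the test on the 12 arrays in any. Tlr6 has 2 windows and the first listed is shown. Capitals mark every match, on either strand, to 6 short motifs described after the sequences.
Tlr3, chr8:45410381-45410630, minus strand: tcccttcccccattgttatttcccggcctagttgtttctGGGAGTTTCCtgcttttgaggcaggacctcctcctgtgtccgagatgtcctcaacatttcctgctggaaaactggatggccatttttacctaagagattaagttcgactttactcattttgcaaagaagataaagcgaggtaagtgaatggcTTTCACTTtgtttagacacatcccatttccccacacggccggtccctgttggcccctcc
Tlr13, chrX:106143025-106143274, plus strand: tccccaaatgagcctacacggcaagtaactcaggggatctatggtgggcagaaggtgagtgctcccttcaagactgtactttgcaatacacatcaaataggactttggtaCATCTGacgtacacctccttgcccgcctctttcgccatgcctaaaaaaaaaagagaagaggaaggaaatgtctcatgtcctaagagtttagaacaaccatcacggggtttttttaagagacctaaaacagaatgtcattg
Tlr9, chr9:106222348-106222597, plus strand: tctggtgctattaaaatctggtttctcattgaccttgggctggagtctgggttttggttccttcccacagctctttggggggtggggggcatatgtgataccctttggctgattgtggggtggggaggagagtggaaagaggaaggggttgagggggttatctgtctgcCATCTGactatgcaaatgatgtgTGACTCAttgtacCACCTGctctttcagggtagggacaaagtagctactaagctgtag
Tlr6, chr5:64959167-64959416, minus strand: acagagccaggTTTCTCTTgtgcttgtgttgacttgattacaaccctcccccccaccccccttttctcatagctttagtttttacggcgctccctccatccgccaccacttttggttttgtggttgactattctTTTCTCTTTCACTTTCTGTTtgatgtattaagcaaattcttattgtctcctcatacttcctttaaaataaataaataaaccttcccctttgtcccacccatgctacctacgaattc

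The short interferon regulatory factor site AANNGAAA was present in the windows of Tlr1, Tlr2, Tlr3, Tlr6 and Tlr12, and in 21.3% of the 32851 windows of the table. In Tlr3 it began 59 bases before the start site. The fuller interferon-stimulated response element holds 2 copies of GAAA with 2 free bases between them and overlaps the short site. It was found in Tlr6 alone among the members, read on the other strand as TTTCTCTTTC and TTTCACTTTC, and in 2.98% of all windows. An NF-kB site, GGGAGTTTCC with any base allowed in the place of its last G, was found in Tlr3 alone, 211 bases before the start, and in 0.356% of all windows. The AP-1 site TGANTCA, the class of site that Batf3 binds with its partners, was found in Tlr9, 58 bases before the start, and in 6.75% of all windows. The E-box CANCTG, bound by E proteins, was found in Tlr1, Tlr2, Tlr9 and Tlr13, and in 44.8% of all windows. The PU.1 site GAGGAAGT was found in Tlr1, and in 2.44% of all windows. A match describes letters in these windows and was not tested as a site of binding.

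The labelled cell types were checked against marker genes. The summed signal of 8 progenitor markers was 20631 to 25597 on the CDP arrays and 6536 to 9224 on the Zbtb46-GFP+ arrays. For 10 cDC1 markers, among them Batf3 but not Tlr3, the sum was 3504 to 3882 in CDPs, 20102 to 23208 in WT Zbtb46-GFP+ cells, 8819 to 8923 in Batf3 KO and 6728 to 6868 in Id2 KO. The 9 measured pDC markers summed to 4101 to 5769 in WT Zbtb46-GFP+ cells, 6245 to 9537 in Batf3 KO and 16710 to 18507 in Id2 KO. The 10 cDC2 markers summed to 7482 to 13128, 16554 to 19910 and 17682 to 20038 in the same groups. In limma's test against WT Zbtb46-GFP+ cells, 1 of those 10 was called higher in each knockout. Of all genes, 0.336% were called in Batf3 KO and 1.81% in Id2 KO, in either direction. The means of Clec4b1 and Clec4a4 were lower than WT in both knockouts, and those of the other cDC2 markers were higher. The 10 neutrophil markers summed to 15837 to 17769 in WT Zbtb46-GFP+ cells and 40298 to 41473 in Id2 KO. In that comparison 1 of the 10 was called higher. The 7 measured B cell markers summed to 651 to 1365 over all 12 arrays. Batf3 was 9.92 ± 0.10 (SD, n = 2) in WT Zbtb46-GFP+ cells and 7.10 ± 0.31 in Batf3 KO, and Id2 was 11.74 ± 0.37 and, in Id2 KO, 8.61 ± 0.30. Xist, transcribed from the inactive X chromosome, was 12.41 ± 0.00 and 12.10 ± 0.24 in WT CDPs and Zbtb46-GFP+ cells and 5.35 to 5.57 in the 4 knockout groups, so Xist level and genotype cannot be told apart on these 12 arrays. In such bulk samples, fewer cells of a type and less RNA per cell cannot be told apart either.

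From CDPs to Zbtb46-GFP+ cells in WT, most of the family rose. In limma's test with Benjamini-Hochberg adjustment over all genes, 8 of the 10 members passed an adjusted p of 0.05, each with a rise, against 4.71% of all genes called higher (11.1% in either direction). The median change of the members was 1.37 on the log2 scale, and that of all genes 0.03. Of the surface receptors 3 of 4 rose, and of the endosomal receptors 5 of 6. On the arrays themselves, 9 of the 10 members had WT groups that did not overlap, all with the Zbtb46-GFP+ arrays higher, where 44.3% of all genes had groups apart in either direction.

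Tlr3 had the largest rise of the family. Its log2 signal was 5.50 and 5.44 on the WT CDP arrays and 11.56 and 11.59 on the WT Zbtb46-GFP+ arrays. The groups lay far apart and the arrays within each nearly coincided. The difference was 6.11 (SE 0.14, limma adjusted p = 2.02e-09), a 68.9-fold rise, with the smallest p of all 19938 genes. Tlr13 was next in the family. Its signal was 5.78 and 5.24 in WT CDPs and 8.52 and 10.06 in WT Zbtb46-GFP+ cells, apart but with a wide spread in the later cells. The rise was 13.8-fold (log2 3.79, SE 0.50, limma adjusted p = 6.10e-04).

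Tlr9, Tlr12, Tlr1 and Tlr4 rose by smaller and similar amounts. Tlr9, the CpG DNA sensor, was 9.46 and 9.04 in WT CDPs and 10.22 and 10.88 in Zbtb46-GFP+ cells, a 2.46-fold rise (log2 1.30, SE 0.23, limma adjusted p = 0.00347). Tlr12 was 7.09 and 6.34, then 8.11 and 8.19 (log2 1.44, SE 0.23). In both genes the lower Zbtb46-GFP+ array stood above the higher CDP array. Tlr1 was 7.93 and 7.60 in CDPs, then 9.19 and 9.39 (log2 1.53, SE 0.28), and Tlr4 was 5.59 and 5.77, then 7.21 and 7.52 (log2 1.69, SE 0.18). Their limma adjusted p-values were 0.00513 and 1.26e-04, and neither gene's groups overlapped.

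Tlr2 and Tlr8 passed the WT test by less. Tlr2, the shared partner of Tlr1 and Tlr6, was 8.39 and 8.10 in WT CDPs and 8.78 and 8.88 in Zbtb46-GFP+ cells (log2 0.59, SE 0.15, limma adjusted p = 0.0301). Without WT CDP replicate 2 its adjusted p was 0.162, without WT Zbtb46-GFP+ replicate 2 it was 0.0706 and without replicate 3 it was 0.129. Tlr8 was 5.20 and 5.07, then 5.62 and 6.35 (log2 0.85, SE 0.22, limma adjusted p = 0.0314). Its adjusted p was 0.104 without WT CDP replicate 1, 0.122 without WT CDP replicate 2, 0.188 without WT Zbtb46-GFP+ replicate 3, 0.135 with a term for the replicate 1 arrays and 0.110 with the replicate number as a block. Both genes thus had separate groups but calls near the threshold, and leaving out an array also weakens the test. With an array left out, the difference ran from 0.44 to 0.73 for Tlr2 and from 0.49 to 1.22 for Tlr8.

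Tlr6 and Tlr7 did not pass. Tlr6, at 7.40 and 7.31 in WT CDPs and 7.53 and 8.36 in Zbtb46-GFP+ cells, differed by 0.59 (95% interval 0.13 to 1.05, limma adjusted p = 0.111), and by 1.00 (adjusted p = 0.00154) without WT Zbtb46-GFP+ replicate 2. It also passed with the percentile block (adjusted p = 0.0282). The single-stranded RNA sensor Tlr7 was 6.29 and 5.91, then 5.97 and 5.62, with groups that overlapped. Its difference was -0.31 (95% interval -0.74 to 0.13), below 0 where the other 9 members were above it.

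**Figure D1:**
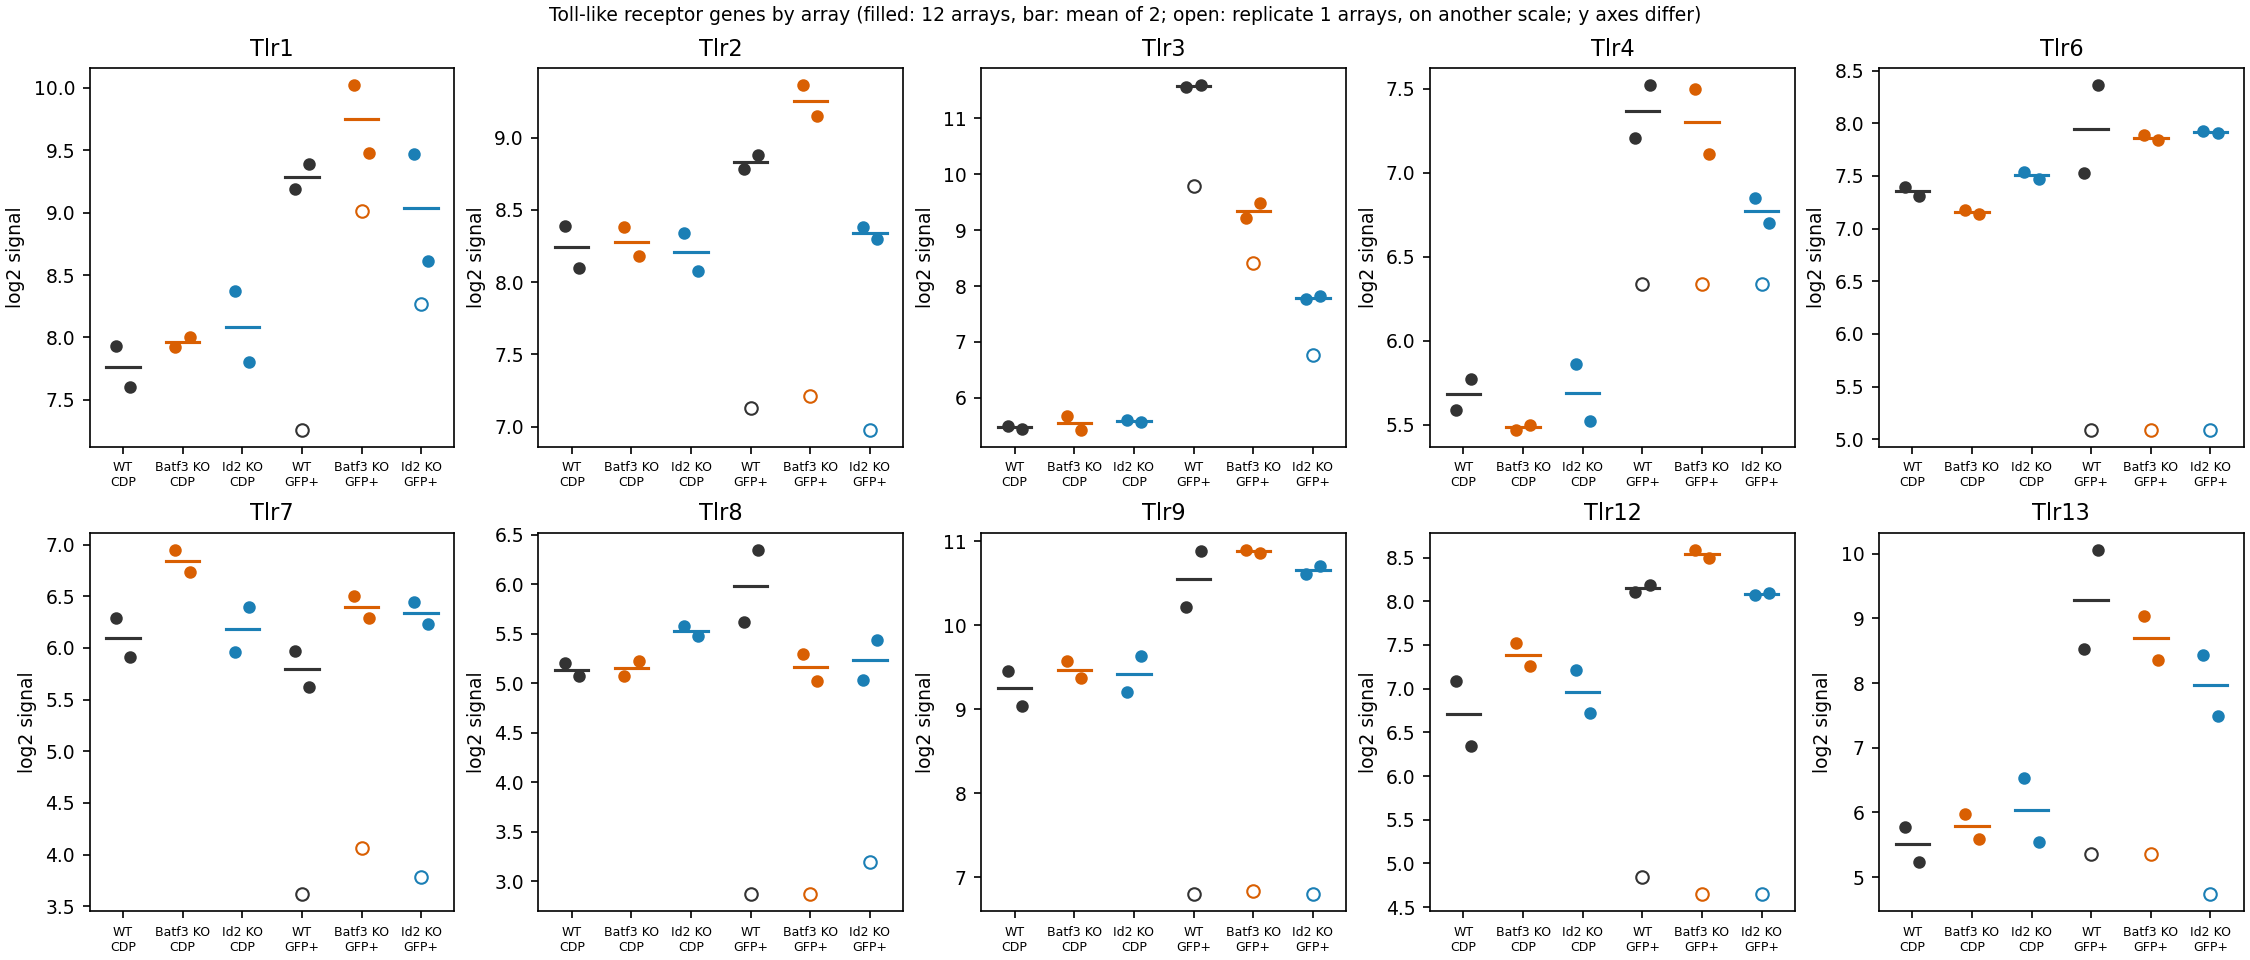
Log2 signal of each Toll-like receptor gene on every array, with filled points for the 12 arrays on a common scale, bars for the mean of 2, and open points for the replicate 1 arrays of Zbtb46-GFP+ cells, which lie on another scale. Tlr3 is near 5.5 in all CDP groups and falls from WT (11.58) to Batf3 KO to Id2 KO in Zbtb46-GFP+ cells. In the latter cells Tlr9 and Tlr12 differ far less between the 3 genotypes. Each panel has its own y axis, which does not start at 0.

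The same step in Batf3 KO cells raised 7 of 10 members, against 3.87% of all genes called higher (7.18% in either direction), with a member median of 1.28. These were Tlr1, Tlr2, Tlr3, Tlr4, Tlr9, Tlr12 and Tlr13. In Id2 KO cells 5 of 10 rose, against 3.84% of all genes called higher (6.82% in either direction), with a member median of 1.02. Those were Tlr3, Tlr4, Tlr9, Tlr12 and Tlr13, so that 1 of 4 surface receptors passed in Id2 KO and 3 of 4 in Batf3 KO. Whether these counts differ between genotypes is a question for the interaction tests given further on.

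Tlr3 rose in both knockouts, but to lower levels. In Batf3 KO it was 5.68 and 5.43 in CDPs and 9.21 and 9.48 in Zbtb46-GFP+ cells, a 13.8-fold rise (log2 3.79, SE 0.14, limma adjusted p = 6.99e-08). In Id2 KO it was 5.60 and 5.56, then 7.77 and 7.82, a 4.63-fold rise (log2 2.21, SE 0.14, limma adjusted p = 9.40e-06). Neither pair of groups overlapped.

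Tlr13 was 5.98 and 5.59 in Batf3 KO CDPs and 9.04 and 8.36 in the later cells (log2 2.92, SE 0.50, limma adjusted p = 0.00458). In Id2 KO it was 6.53 and 5.54, then 8.44 and 7.49 (log2 1.93, SE 0.50, limma adjusted p = 0.0425). The adjusted p of the Id2 KO step was 0.208 without Id2 KO CDP replicate 2, 0.326 without Id2 KO Zbtb46-GFP+ replicate 2 and 0.0621 without replicate 3. The groups were apart in both knockouts, by the least in Id2 KO.

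Tlr9 changed by nearly the same amount in each genotype. It was 9.57 and 9.37, then 10.90 and 10.86 in Batf3 KO (log2 1.41, SE 0.23), and 9.21 and 9.64, then 10.61 and 10.71 in Id2 KO (log2 1.24, SE 0.23), beside 1.30 in WT. The limma adjusted p-values were 0.00308 and 0.00743. Without Id2 KO CDP replicate 1 the second was 0.0685, and without Id2 KO Zbtb46-GFP+ replicates 2 and 3 it was 0.0537 and 0.0638. Tlr12 likewise rose by 1.16 in Batf3 KO (7.52 and 7.26, then 8.59 and 8.50) and by 1.12 in Id2 KO (7.21 and 6.72, then 8.07 and 8.10), beside 1.44 in WT. Its limma adjusted p-values of 0.0103 and 0.0134 rose to 0.0543 to 0.0864 in Batf3 KO and 0.0866 to 0.0926 in Id2 KO when CDP replicate 2 or either Zbtb46-GFP+ array was left out.

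The surface receptors Tlr1, Tlr2 and Tlr4 showed their smallest change in Id2 KO. This was not particular to the surface class, as it also held for Tlr6 and the endosomal Tlr3, Tlr9, Tlr12 and Tlr13. In Batf3 KO, Tlr1 had a CDP mean of 7.96 ± 0.06 (SD, n = 2) and signals of 10.02 and 9.48 in the later cells (log2 1.79, SE 0.28, limma adjusted p = 0.00289). In Id2 KO it was 8.37 and 7.80, then 9.47 and 8.61, a difference of 0.96 that did not pass (limma adjusted p = 0.0740), though it was 1.38 (adjusted p = 0.0273) without Id2 KO Zbtb46-GFP+ replicate 3 and 1.29 (adjusted p = 0.0200) with the replicate block. It also passed after centring (adjusted p = 0.0325), with the percentile block (0.00298) and among genes above the median (0.0405). Tlr2 was 8.38 and 8.18, then 9.36 and 9.15 in Batf3 KO (log2 0.98, SE 0.15, limma adjusted p = 0.00257), and 8.34 and 8.08, then 8.38 and 8.30 in Id2 KO, where the groups overlapped (0.13, 95% interval -0.20 to 0.47). Tlr4 was 5.47 and 5.50, then 7.50 and 7.11 in Batf3 KO (log2 1.82, SE 0.18), and 5.86 and 5.52, then 6.85 and 6.70 in Id2 KO (log2 1.09, SE 0.18, limma adjusted p = 0.00381, and 0.0517 without Id2 KO Zbtb46-GFP+ replicate 2). Neither gene's Zbtb46-GFP+ arrays fell below its CDP arrays in Batf3 KO.

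Tlr6, Tlr7 and Tlr8 did not pass in either knockout on the 12 arrays. Tlr6 differed by 0.71 in Batf3 KO (limma adjusted p = 0.0731) and by 0.41 in Id2 KO. The Batf3 KO value passed under 4 alternatives, at adjusted p-values of 0.0235 with a term for the replicate 1 arrays, 0.0495 after centring on the 75th percentile, 0.0147 with the percentile block and 0.0461 among genes above the median. Tlr7 differed by -0.44 and 0.15, and Tlr8, which had passed in WT, by 0.02 (95% interval -0.48 to 0.51) and -0.29 (95% interval -0.79 to 0.20).

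**Figure D2:**
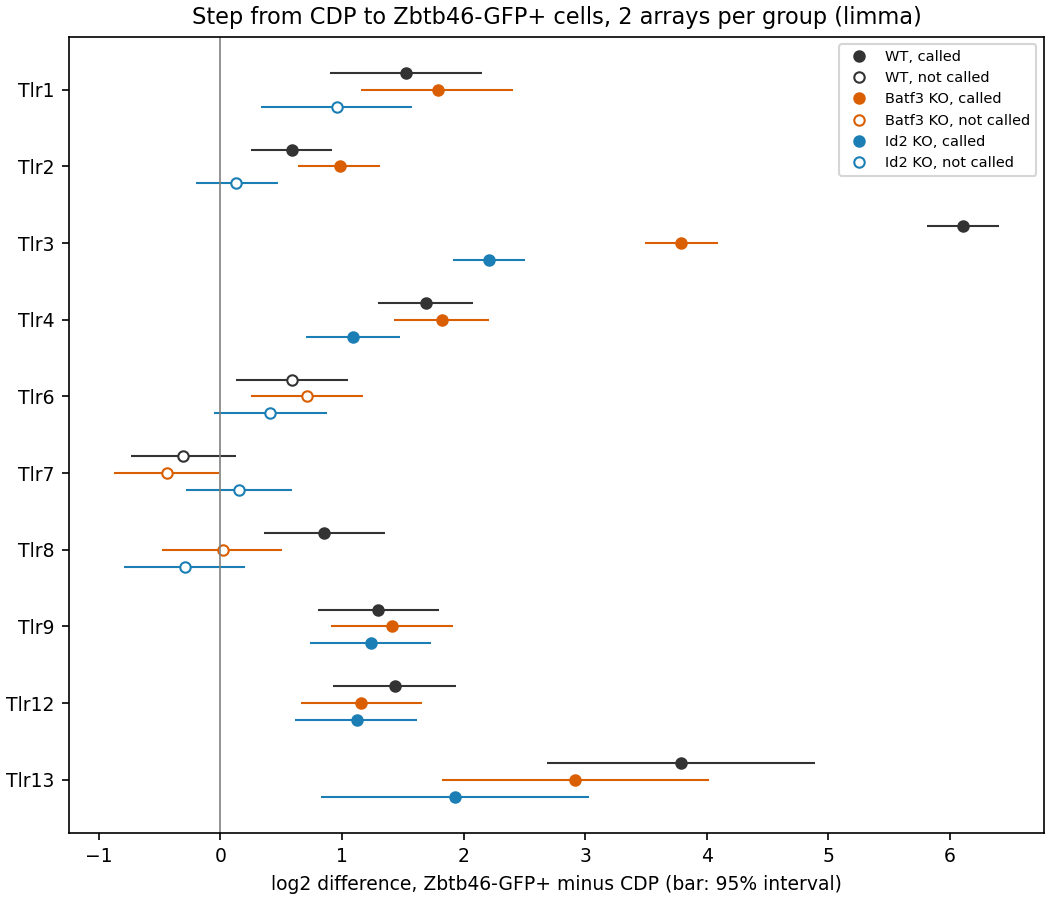
Log2 difference between Zbtb46-GFP+ cells and CDPs for each receptor gene in WT, Batf3 KO and Id2 KO, with 95% intervals from limma and filled points for adjusted p under 0.05. The 3 intervals of Tlr3 do not overlap (6.11, 3.79 and 2.21), whereas those of Tlr9 and Tlr12 do.

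Neutrophil and monocyte markers were looked at beside these rises, because Tlr2, Tlr4 and Tlr13 are also expressed by those cells. Called in either direction in the steps of WT, Batf3 KO and Id2 KO were 11.1%, 7.18% and 6.82% of all genes. In the WT step 2 of 10 neutrophil markers were called lower, and their summed signal went from 5990 to 11125 in CDPs to 15837 to 17769 in Zbtb46-GFP+ cells. It went from 4855 to 7728 to 21203 to 29851 in Batf3 KO, with 4 of 10 called higher, and from 7333 to 19683 to 40298 to 41473 in Id2 KO, with 4 of 10 higher. Of 8 measured monocyte and macrophage markers, 2 were higher and 3 lower in the WT step, with sums of 9108 to 9529 in CDPs and 6602 to 7393 in the later cells. Arrays give no true zero for any marker, and the part of such cells in the rises of the receptors was not tested.

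In Zbtb46-GFP+ cells, loss of Batf3 and loss of Id2 each left 1 of 10 members past the test, Tlr3, and it was lower in both. In Batf3 KO this stood against 0.336% of all genes called (0.226% lower), and in Id2 KO against 1.81% (0.717% lower). Tlr3 was 11.58 ± 0.02 (SD, n = 2) in WT, 9.34 ± 0.19 in Batf3 KO and 7.79 ± 0.04 in Id2 KO. The 6 arrays fell into 3 levels that did not overlap. The difference from WT was -2.23 (SE 0.14, limma adjusted p = 1.39e-05) in Batf3 KO and -3.78 (SE 0.14, limma adjusted p = 1.78e-07) in Id2 KO. Both comparisons share the WT arrays. Of the 10 cDC1 markers, among them Batf3 itself, the gene targeted in Batf3 KO, 6 were lower without Batf3 and 9 without Id2. Their part in the lower Tlr3 signal was not tested.

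The direct comparison of the knockouts called 2 of 10 members, both lower in Id2 KO than in Batf3 KO, against 0.331% of all genes called lower (0.592% in either direction). Tlr3 was lower by 2.93-fold (log2 -1.55, SE 0.14, limma adjusted p = 5.16e-04). Tlr2 was lower by 1.89-fold (log2 -0.92, SE 0.15, limma adjusted p = 0.0254), with 9.36 and 9.15 in Batf3 KO against 8.38 and 8.30 in Id2 KO. Leaving out any 1 of those 4 arrays took the adjusted p of Tlr2 to 0.0932 to 0.235: 0.188 and 0.0932 without Batf3 KO Zbtb46-GFP+ replicates 2 and 3, and 0.195 and 0.235 without Id2 KO replicates 2 and 3. Against WT (8.78 and 8.88), Tlr2 stood 0.43 higher in Batf3 KO and 0.49 lower in Id2 KO on the log2 scale, with neither passing the test (limma adjusted p = 0.726 and 0.200).

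The replicate 1 arrays, 1 per genotype and without a test, gave Tlr3 signals of 9.79 in WT, 8.42 in Batf3 KO and 6.76 in Id2 KO, in the same order. Tlr1 was 7.26, 9.01 and 8.27 there, a difference of 1.75 between Batf3 KO and WT against 0.46 on the other arrays. Tlr4 (6.34) and Tlr6 (5.09) had identical values on all 3 arrays, and Tlr8, Tlr9, Tlr12 and Tlr13 had identical values on 2 of the 3. Those ties carry no information on genotype.

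**Figure D3:**
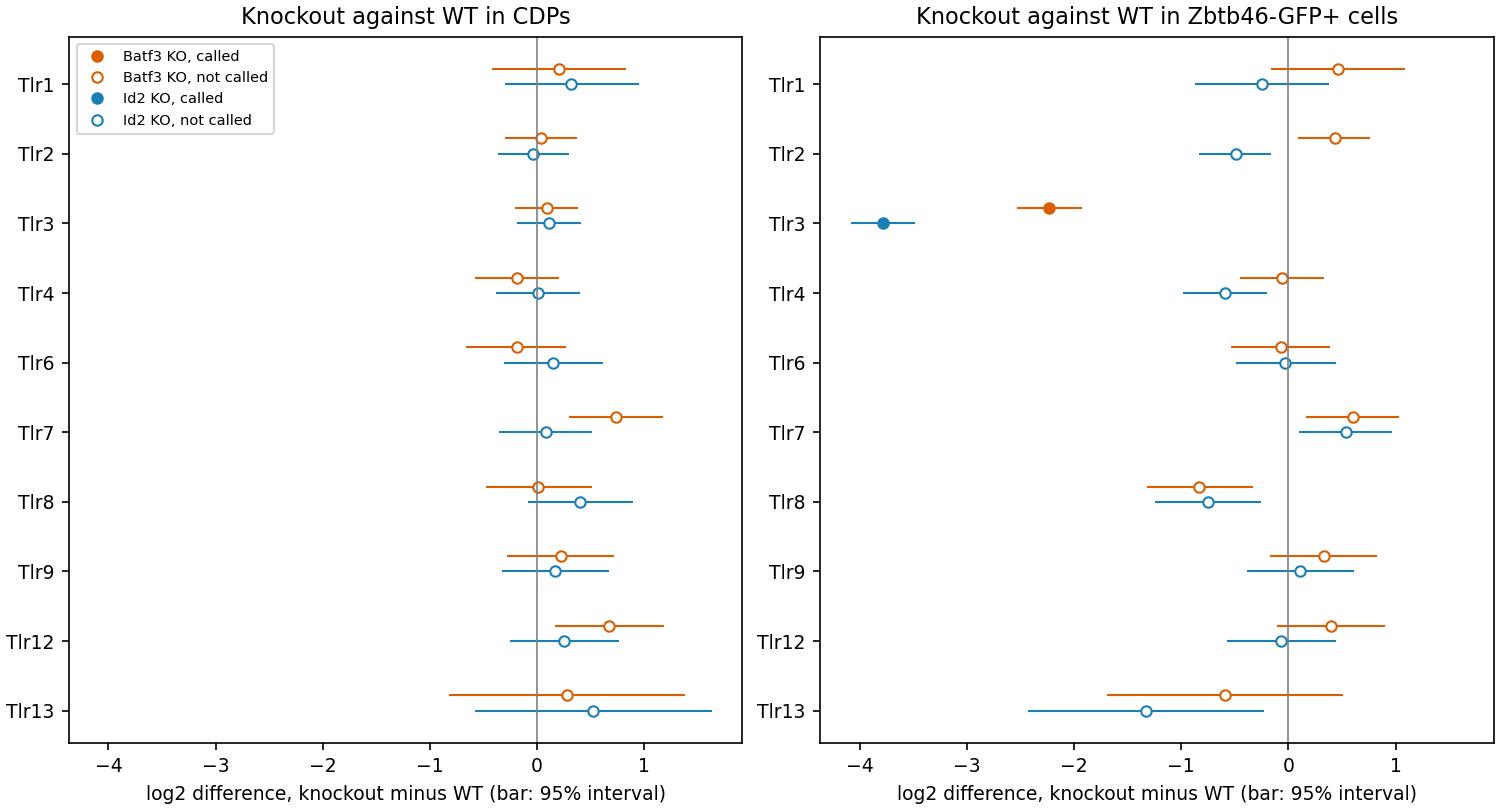
Log2 difference between each knockout and WT for the receptor genes, in CDPs (left) and in Zbtb46-GFP+ cells (right), with 95% intervals from limma and filled points for adjusted p under 0.05. In the right panel Tlr3 stands alone at -2.23 and -3.78, and in the left panel no point is filled.

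The other 9 members did not pass against WT in Zbtb46-GFP+ cells on the 12 arrays, but for 3 of them the call in Id2 KO turned on the model. With a block that sets the array of higher 75th percentile in each group against the other, Tlr2 (-0.49, limma adjusted p = 0.00974), Tlr4 (-0.59, adjusted p = 0.0270) and Tlr13 (-1.33, adjusted p = 0.00287) were lower in Id2 KO. Centring the arrays on their 75th percentile also called Tlr2 (-0.60, adjusted p = 0.0492). Tlr9 differed by 0.33 (95% interval -0.17 to 0.83) after loss of Batf3 and by 0.11 (95% interval -0.39 to 0.61) after loss of Id2, and Tlr12 by 0.40 (-0.11 to 0.90) and -0.07 (-0.57 to 0.44). Tlr7 differed by 0.60 (0.16 to 1.03) and 0.54 (0.10 to 0.97), at limma adjusted p-values of 0.63 and 0.34. In Id2 KO these values stood beside a rise in 6 of the 9 measured pDC markers, against 1.09% of all genes called higher. In Batf3 KO they stood beside a rise in 0 of 9, and Tlr7 was already 0.74 above WT in CDPs. Tlr7 and Tlr9 were not counted among the pDC markers, and the part of pDCs was not tested. Tlr4 differed by -0.06 (-0.45 to 0.33) and -0.59 (-0.98 to -0.20), and Tlr1 by 0.46 (-0.16 to 1.09) and -0.25 (-0.87 to 0.38). Tlr6 differed by -0.07 and -0.03.

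Tlr8 and Tlr13 were numerically lower in both knockouts. Tlr8 was 5.62 and 6.35 in WT, 5.30 and 5.02 in Batf3 KO and 5.03 and 5.44 in Id2 KO, and neither knockout overlapped WT. Its differences of -0.83 and -0.75 missed the threshold (limma adjusted p = 0.362 and 0.178), and reached it without WT Zbtb46-GFP+ replicate 2 (-1.19, adjusted p = 0.0331, and -1.12, adjusted p = 0.0255). Tlr13 differed by -0.59 (95% interval -1.69 to 0.51) and -1.33 (95% interval -2.43 to -0.23, limma adjusted p = 0.357). Tlr7, Tlr8 and Tlr13 are the 3 members on the X chromosome, and they were compared between groups whose Xist signal differed. Their part in the pattern was not tested. Both replicate 1 arrays with high Xist, WT (10.53) and Batf3 KO (11.02), gave Tlr7 signals of 3.62 and 4.06, and were tied for Tlr8 and Tlr13.

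In CDPs neither knockout changed any receptor gene by limma's test. Called were 0 of 10 in Batf3 KO, against 0.0502% of all genes, and 0 of 10 in Id2 KO, against 0.0251%. At an unadjusted p under 0.05 there were 2 of 10 in Batf3 KO, against 1.29% of all genes, and 0 of 10 in Id2 KO, against 0.632%. The 2 were Tlr7, at 6.95 and 6.73 against 6.29 and 5.91 in WT (log2 0.74, 95% interval 0.30 to 1.17), and Tlr12, at 7.52 and 7.26 against 7.09 and 6.34 (log2 0.67, 95% interval 0.17 to 1.18). Tlr3 differed by 0.09 (-0.21 to 0.38) and 0.11 (-0.19 to 0.41). Its WT CDP mean of 5.47 lay below the median of 6.93 over genes. A fall the size of those in Zbtb46-GFP+ cells had little room there, so these intervals do not test for one.

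The interaction of genotype with stage, which asks whether the step itself differs, called 1 of 10 members for each knockout, Tlr3 both times, against 0.0953% of all genes for Batf3 KO and 0.321% for Id2 KO. The rise of Tlr3 was smaller than in WT in both: the interaction with loss of Batf3 was -2.32 (log2 scale, SE 0.19, limma adjusted p = 9.41e-04) and -3.90 in Id2 KO (SE 0.19, limma adjusted p = 1.06e-05). With Tlr3 low in CDPs of every genotype, these values lay near its differences from WT in Zbtb46-GFP+ cells (-2.23 and -3.78). No other member passed in this fit. For Tlr8 in Id2 KO the value was -1.15 (limma adjusted p = 0.286), and -1.52 (adjusted p = 0.0434) without WT Zbtb46-GFP+ replicate 2. For Tlr13 it was -1.85 (95% interval -3.41 to -0.30, limma adjusted p = 0.781), and it passed with the percentile block (adjusted p = 0.00856). For Tlr4 it was -0.60 (-1.15 to -0.05), for Tlr1 -0.57 (-1.45 to 0.31) and for Tlr2 -0.46 (-0.93 to 0.02). The median interaction with loss of Id2 was -0.51 over the surface members and -0.73 over the endosomal members.

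The genes whose 6 group means were most like those of Tlr3, each gene centred on its own mean, were Anpep, a surface peptidase (root mean square difference 0.29 log2 units), Cd226, an adhesion receptor (0.50), and Adgre5, an adhesion G-protein-coupled receptor (0.61). For Tlr13 they were Cxcr3, a chemokine receptor (0.22), Sgk1, a kinase (0.23), and Tbc1d9 (0.23). Closest to Tlr9 were Il10ra, the interleukin 10 receptor chain (0.05), Add3 (0.06) and Siglecg (0.07). Tlr4 was nearest to Dock5 (0.10), Tlr1 to AB124611 (0.09), Tlr2 to Adcy4 (0.05), Tlr12 to Epsti1 (0.10) and Tlr8 to Klra2 (0.11). These are descriptions over 6 group means from the same 12 arrays, and a gene with a small range has close neighbours more easily.

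Among genes that help receptors bind or handle ligand, 2 of 9 rose and 2 fell in the WT step. Of all genes, 4.71% were called higher in that step and 11.1% in either direction. Cd36, a scavenger receptor that assists Tlr2 with Tlr6, rose by 3.78 (SE 0.22, limma adjusted p = 1.98e-06), and Cd180, a Tlr4-related receptor of B cells and DCs, rose by 1.60. Lbp, the lipopolysaccharide binding protein, changed by -1.83, and the nuclear protein gene Hmgb1 by -0.74. The lipopolysaccharide co-receptors of Tlr4 did not pass, with WT signals for Cd14 of 6.83 ± 0.12 (SD, n = 2) at the CDP stage and 6.75 ± 0.02 later, and for Ly96 of 4.71 ± 0.07 and 4.77 ± 0.41. Cd180 also rose in Batf3 KO (1.20) and Id2 KO (1.51), where 1 and 2 of 9 were higher and 2 and 1 lower. In those steps 7.18% and 6.82% of all genes were called in either direction. Cd36 had signals of 4.25 to 4.53 on all Batf3 KO arrays of the common scale, against 7.78 and 8.44 in WT Zbtb46-GFP+ cells, and of 4.74 and 5.31 in Id2 KO Zbtb46-GFP+ cells. Its interactions passed in both knockouts (-3.58 and -3.18, limma adjusted p = 9.41e-04 and 0.00154).

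The genes that fold and carry receptors to endosomes changed little, apart from Rab7b. In the WT step, where 11.1% of all genes were called, 1 of 9 measured rose and 1 fell, the latter Lrrc59 (-0.88). Unc93b1, the carrier of the endosomal receptors, had WT signals of 11.33 ± 0.02 (SD, n = 2) at the CDP stage and 11.32 ± 0.10 later, and its means ran from 11.26 to 11.38 over the 6 groups. The chaperone genes Cnpy3 and Hsp90b1 did not pass either. Rab7b, a GTPase of late endosomes that is known to limit Tlr4 and Tlr9 signalling, was 8.09 ± 0.41 and 11.01 ± 0.12 in WT (log2 2.92, SE 0.21, limma adjusted p = 1.02e-05). It reached 9.52 ± 0.04 in Batf3 KO Zbtb46-GFP+ cells and 8.24 ± 0.21 in Id2 KO, the latter at the level of Id2 KO CDPs (8.28 ± 0.27). Its order across Zbtb46-GFP+ groups, WT above Batf3 KO above Id2 KO, was that of Tlr3, and it was lower in Id2 KO than in Batf3 KO (-1.29, limma adjusted p = 0.0241). That order was not particular to Tlr3 and Rab7b. It was also seen in some cDC1 markers, such as Clec9a and Naaa, and not in others, such as Itgae and Gcsam.

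**Figure D4:**
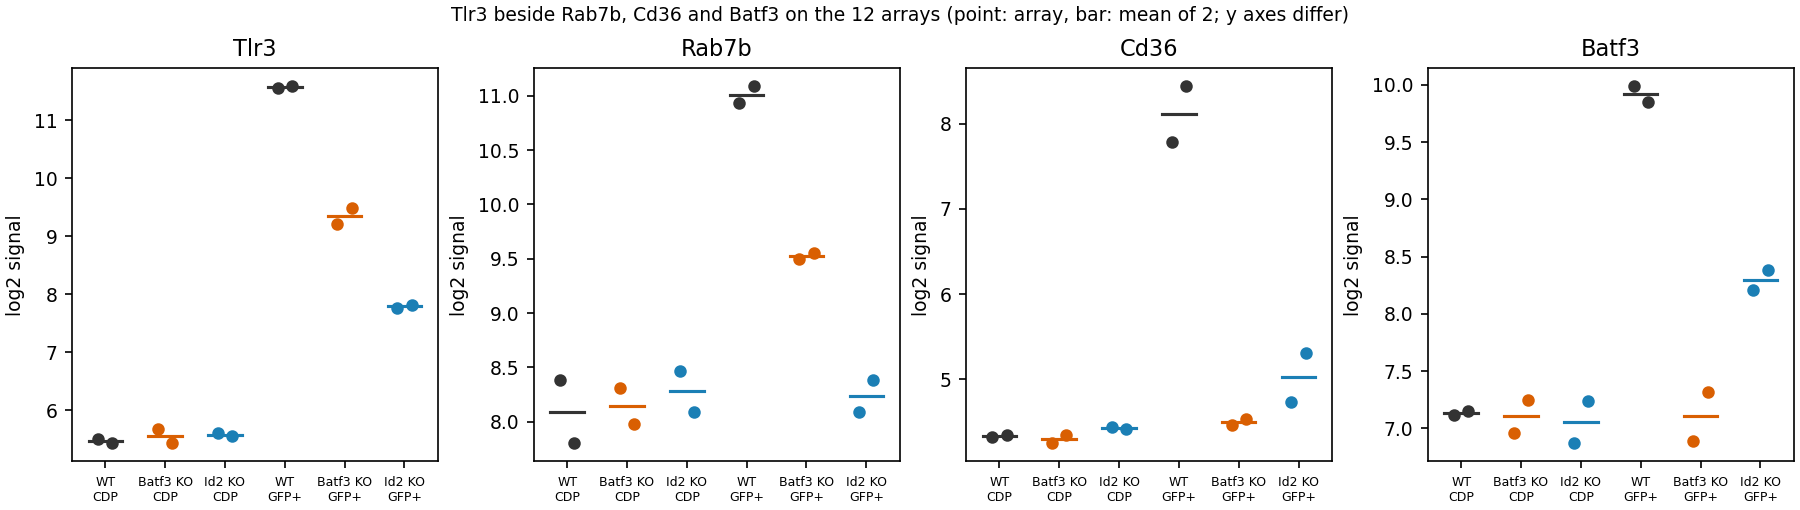
Log2 signal of Tlr3, Rab7b, Cd36 and Batf3 on the 12 arrays of the common scale, with points for arrays and bars for the mean of 2; each panel has its own y axis, which does not start at 0. Tlr3 and Rab7b show 3 separate levels in Zbtb46-GFP+ cells, while Cd36 is near its CDP level in Batf3 KO (4.50 against 4.30).

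Proteases and nucleases of the endolysosome, which process the nucleic acid receptors or their ligands, moved in both directions in WT. In that step 11.1% of all genes were called. Of 9 measured, 2 rose, Pld4, a nuclease that degrades single-stranded DNA (1.23), and Ctss (0.87), and 2 fell, Lgmn (-0.73) and the nucleoside transporter gene Slc29a3 (-0.73). In the step without Batf3, where 3.87% of all genes were called higher, 2 of 9 rose, Ctss (0.90) and Pld4 (0.83). In the step without Id2 (3.84% of all genes called higher), 4 of 9 rose, Ctss (0.99), Ctsl (0.90), Pld4 (0.84) and Ctsb (0.58). In Id2 KO against WT Zbtb46-GFP+ cells 3 of 9 were higher, Ctsl (1.48), Slc29a3 (1.17) and Lgmn (0.98), against 1.09% of all genes called higher.

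Downstream of the receptors, both main adaptors rose with stage. In the WT step 4.71% of all genes were called higher and 11.1% in either direction. In WT 2 of 6 adaptors passed: Myd88, used by every member except Tlr3, at 9.49 ± 0.27 (SD, n = 2) and 10.42 ± 0.42 (log2 0.93, SE 0.24, limma adjusted p = 0.0287), and Ticam1, the adaptor of Tlr3 and Tlr4, at 7.66 ± 0.07 and 8.34 ± 0.34 (log2 0.68, SE 0.19, limma adjusted p = 0.0414). They also passed in Batf3 KO, just under the threshold (0.89 and 0.70, limma adjusted p = 0.0480 and 0.0481). In Id2 KO their differences were 0.67 and 0.35 (limma adjusted p = 0.148 and 0.411). No adaptor was called in either interaction of genotype with stage. Among 15 measured kinases and ubiquitin ligases, 3 rose and 1 fell in WT: Map3k8 (1.64), Irak2 (1.18) and Peli1 (0.77) were higher, and Ikbke (-0.84) was lower. Irak2 and Map3k8 rose and Ikbke fell in both knockouts too.

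Against 4.71% of all genes called higher, 6 of 11 measured transcription factors that the receptors act through rose in WT. They were led by Irf7, which drives type I interferon genes (2.79), and Irf5, which acts on inflammatory cytokine genes (1.91), with Nfkb2 (1.24), Relb (1.23) and Atf3 (1.09) after them. In Batf3 KO 6 of 11 rose, and in Id2 KO 4 of 11, against 3.87% and 3.84% of all genes called higher. Irf5 was lower in Id2 KO than in WT Zbtb46-GFP+ cells (-0.68, limma adjusted p = 0.0286), while Irf8, which cDC1 development needs, had a mean of 12.78 ± 0.22 in WT CDPs and 12.88 ± 0.17 (SD, n = 2) in the later WT cells. Negative regulators of the pathway had 5 of 11 members higher in WT, among them Dusp1 (1.63), Cyld (0.79), Trafd1 (0.76), Tnfaip3 (0.75) and Nfkbia (0.74). In each knockout 1 of 11 was higher, Tnfaip3 (0.72 and 0.87). The WT calls of Dusp1, Cyld and Nfkbia lay near the threshold (limma adjusted p = 0.047, 0.042 and 0.037). Neither interaction of genotype with stage called any of these transcription factors or negative regulators, so the counts do not show that the steps differ.

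**Figure D5:**
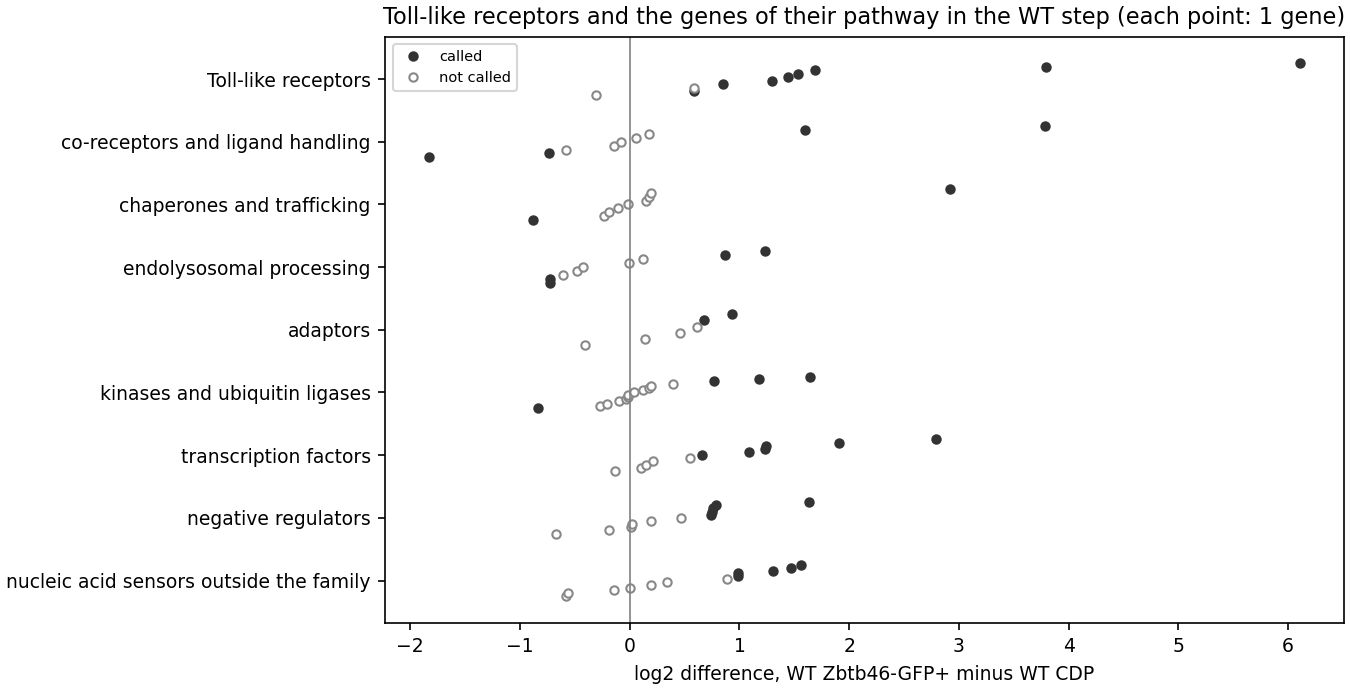
Log2 difference between WT Zbtb46-GFP+ cells and WT CDPs for the receptor genes and for the genes of each pathway list, 1 point per gene, filled where the limma adjusted p was under 0.05. In the top row 8 of 10 points are filled, all right of 0, and Tlr3 (6.11) lies farthest right of all genes shown.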

How the data were processed

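Per the submitters' processing notes, RMA and the vendor's Expression Console made the deposited values; no version is given. They are intensity on a linear scale: the deposited values were all above 0, so log2 was taken. Probe sets with 1 symbol in GEO's platform annotation were used, the highest mean per gene, which gave 19938 genes. The number of arrays limits the precision.

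Comparisons used limma 3.58.1 in R 4.3.3: 6 group means on 12 arrays (6 residual degrees of freedom), two-sided, Benjamini-Hochberg over all genes in each of 10 comparisons. P-values measure the spread between these arrays, which may be technical. The procedure was tested on simulated data. Members, 8 pathway lists, marker lists, motifs and the 12-array choice were set with earlier results of these data known. Named genes are all members, up to 5 called genes per list and comparison whose groups did not overlap, and 3 nearest patterns per member called in WT; further genes (Cd14, Ly96, Unc93b1, Cnpy3, Hsp90b1 and Irf8) were named after their values were seen. Tlr5 and Tlr11 are not analysed here. Of the members, 7 of 10 lay above the median of genes, and Tlr4, Tlr7 and Tlr8 lay below it. Residuals of same-numbered CDP arrays correlated at 0.53 to 0.68 and those of Zbtb46-GFP+ arrays at -0.55 to 0.48, so numbers pair only the CDPs, by the data and not by the labels. Alternatives tried were all 15 arrays, with and without a term for the replicate 1 arrays, centring on the 75th percentile, the replicate number and the percentile set as blocks, genes above the median, a variance trend, the mean of probe sets and each array left out.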

Additional observations from a re-analysis of the deposited data

Results flagged for a closer look

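The step of Tlr3 differed between genotypes by the interaction test itself. Against WT it was -2.32 on the log2 scale in Batf3 KO (limma adjusted p = 9.41e-04) and -3.90 in Id2 KO (limma adjusted p = 1.06e-05). On single arrays left out in turn the values ran from -2.45 to -2.18 and from -3.93 to -3.86, past the threshold each time.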

How the results depend on the processing

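Fitted on all 15 arrays without a term, limma called 1 member in the WT step and 0 in each of the other 9 comparisons, with 1 gene called in the WT step over all genes. In that fit the WT step of Tlr8 turned to -0.18, the Batf3 KO step of Tlr12 to -0.14, and the Id2 KO steps of Tlr12 and Tlr9 to -0.03 and -0.05. With a term for the replicate 1 arrays, Id2 KO against Batf3 KO called 1 (Tlr2 lost), Tlr8 was lost in the WT step and Tlr6 gained in the Batf3 KO step. With the percentile set as a block, Id2 KO against WT in Zbtb46-GFP+ cells called 4 (Tlr2, Tlr4 and Tlr13 gained) and the interaction of Id2 KO 2 (Tlr13 gained); Tlr6 was gained in the WT and Batf3 KO steps and Tlr1 in the Id2 KO step. Centring on the 75th percentile called 2 in Id2 KO against WT in those cells (Tlr2 gained), and gained Tlr6 in the Batf3 KO step and Tlr1 in the Id2 KO step, as did testing genes above the median. The variance trend lost Tlr2 in the WT step (adjusted p = 0.0513). With the replicate block the steps called 7, 7 and 6 in WT, Batf3 KO and Id2 KO, and Tlr8 in WT was lost and Tlr1 in Id2 KO gained. The block changed no other member's call. With single arrays left out, the steps called 6 to 8 members in WT, 6 to 7 in Batf3 KO and 1 to 4 in Id2 KO (1 without Id2 KO Zbtb46-GFP+ replicate 2). The knockouts against WT in Zbtb46-GFP+ cells called 1 to 2 each, Id2 KO against Batf3 KO 1, and the interaction of Id2 KO 1 to 2. Tlr3 kept every call and direction outside the fit on all 15 arrays, in which its WT step alone passed. The causes of these changes were not tested. With 2 arrays per group, the number of arrays limits precision.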

Other observations

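Against 4.71% of all genes called higher, nucleic acid sensors outside the Toll-like receptor family also rose along the WT step in 5 of 12 measured genes. They were Zbp1, a sensor of Z-form nucleic acid (1.56, SE 0.29), Ddx58, which encodes the RNA sensor RIG-I (1.47, SE 0.37), Ifih1, which encodes MDA5 (1.31, SE 0.27), Oas3 (0.99) and Dhx58 (0.99), at limma adjusted p-values of 0.00515 to 0.0243. The step without Batf3 raised 5 of 12 (against 3.87% of all genes), led by Zbp1 (2.15) and Ddx58 (2.06). Without Id2 it raised 2 of 12 (against 3.84% of all genes), Ddx58 (1.88) and Oas3 (0.84). Zbp1 differed by 0.99 there (limma adjusted p = 0.0717). None of the 12 sensors was called in either interaction of genotype with stage.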
